A study of Mus musculus with 27 samples.

Results

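The transcripts of 10 integrin chains, 10 of 54532 genes in the deposited table, were picked by gene symbol and read in 27 libraries from mouse embryonic fibroblast (MEF) cultures undergoing reprogramming to induced neurons (iNs). They comprised 4 chains of leukocytes (*Itgam*, *Itgax*, *Itgal*, and *Itgb2*), 5 chains of mesenchymal cells (*Itgav*, *Itga11*, *Itgb1*, *Itgb3*, and *Itgb5*), and *Itga4*, which is kept apart because cells of both kinds are known to use it. The choice was by symbol and not by a threshold on a value, but it was made with earlier results of these data known. The MEFs came from mid-gestation embryos without head and heart, with the cells of 4 embryos in a dish, and were WT, *Per1*-/- (line B6.129-Per1tm1Drw/J), or *Per2*-/- (line B6.129-Per2tm1Drw/J), the WT embryos coming from breeding of these lines. All 9 groups carried lentiviruses for neuronal reprogramming factors and for the doxycycline-dependent activator M2rtTA, on plates coated with poly-D-lysine and the integrin ligand laminin. RNA was taken on day 0, before doxycycline and serum-free N3 medium, and on days 2 and 4, with 3 biological replicates of each genotype and day. The series was made to compare reprogramming between the 3 genotypes, and the integrin chains were compared between days, between genotypes, and between the leukocyte and mesenchymal classes.

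An integrin is a pair of an α and a β chain that spans the cell membrane. Outside the cell the pair binds matrix proteins or surface proteins of other cells, and inside it is linked through talin and kindlin to actin, so that the chains made by a cell set which surfaces it can hold. *Itgb2* encodes the β2 chain of leukocytes, which pairs with αM (*Itgam*, the CD11b chain of macrophages and neutrophils), αX (*Itgax*, CD11c), or αL (*Itgal*, the CD11a chain of LFA-1). *Itgb1* encodes the β1 chain that most adherent cells use for fibronectin, laminin, and collagen, and its partners include α11 (*Itga11*, a collagen receptor of fibroblasts) and α4 (*Itga4*, a receptor for VCAM-1 and fibronectin). The αv chain (*Itgav*) pairs with β3 (*Itgb3*), β5 (*Itgb5*), or β1, and binds vitronectin and other ligands with an RGD sequence.

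The libraries held 15815013 to 24264097 fragments on genes, and levels are given as the deposited FPKM, which are per length and can be set side by side between genes. *Per1* averaged 4.11, 4.21, and 4.45 FPKM in *Per1*-/- libraries on days 0, 2, and 4, against 5.78, 4.80, and 5.16 in WT libraries, and no difference was called, so the gene level does not settle this label either way and *Per1*-/- names the label throughout. *Per2* averaged 1.93, 2.83, and 2.83 FPKM in the libraries labelled *Per2*-/-, above the 0.894, 1.57, and 1.73 of WT libraries. A gene-level value cannot tell whether a mutant allele is still transcribed, so it does not settle this label either. They are called the libraries labelled *Per2*-/- throughout. In the paper, western blots of MEFs showed the loss of PER1 and of PER2 in the matching knockout. Although the submitters labelled every sample as induced neurons, the day 0 libraries averaged 1302 FPKM of the fibroblast transcript *Vim* and 0.65 FPKM of the neuronal *Map2*, which rose to 9.77 FPKM on day 4. The 9 neuron markers summed to 41.9 to 68.7 FPKM on day 0 and 107 to 198 on day 4. *Tubb3*, *Mapt*, *Dcx*, *Syp*, *Snap25*, and *Rbfox3* also rose, *Tubb3* from 22.3 FPKM in WT libraries. *Stmn2* and *Ncam1* fell, from 14.7 to 8.07 and from 17.8 to 12.7 FPKM in WT libraries. The 12 fibroblast markers, given below, did not all move together.

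The 3 leukocyte α chains lie on chromosome 7 (GRCm38), *Itgal* at chr7:127296260-127335138, *Itgam* at chr7:128062640-128118491, and *Itgax* at chr7:128129547-128150657, which puts *Itgax* 0.0669 Mb from *Itgam*. The other members are spread, with *Itgb2* at chr10:77530252-77565708, *Itga4* and *Itgav* at chr2:79255426-79333123 and chr2:83724397-83806916, *Itga11* at chr9:62677826-62783982, *Itgb1* at chr8:128685654-128733200, *Itgb3* at chr11:104608000-104670476, and *Itgb5* at chr16:33829665-33949338. Promoter windows of 7 of the 10 members were found in the RefSeq table (GRCm38.p6). Those of *Itgam*, *Itgav*, and *Itgb1* are printed because these chains, on the plus strand, carried the clearest changes between days. Each window holds the 250 bases before the transcription start, 5′ to 3′, at chr7:128062390-128062639 for *Itgam*, chr2:83724147-83724396 for *Itgav*, and chr8:128685404-128685653 for *Itgb1*. The capitals mark GAGGAA, a sequence bound by ETS factors such as PU.1 (encoded by *Spi1*), and the GC box GGGCGG, each on either strand. Other sequences that ETS factors bind were not searched and are not marked.
Itgam: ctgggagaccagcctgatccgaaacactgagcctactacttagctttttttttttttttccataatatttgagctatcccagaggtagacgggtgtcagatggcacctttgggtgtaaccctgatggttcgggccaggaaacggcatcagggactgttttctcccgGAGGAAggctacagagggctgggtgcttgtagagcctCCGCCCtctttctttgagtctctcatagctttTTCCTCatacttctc
Itgav: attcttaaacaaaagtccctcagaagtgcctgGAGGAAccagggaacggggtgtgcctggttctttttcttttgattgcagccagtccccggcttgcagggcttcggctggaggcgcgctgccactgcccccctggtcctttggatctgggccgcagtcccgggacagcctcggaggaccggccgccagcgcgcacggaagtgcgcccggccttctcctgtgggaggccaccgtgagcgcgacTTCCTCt
Itgb1: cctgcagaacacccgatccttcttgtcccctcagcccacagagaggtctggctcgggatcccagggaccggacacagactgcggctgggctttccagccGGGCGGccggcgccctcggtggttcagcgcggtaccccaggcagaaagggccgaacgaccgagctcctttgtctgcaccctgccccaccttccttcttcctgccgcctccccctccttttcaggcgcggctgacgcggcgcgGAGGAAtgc
The *Itgam* window held GAGGAA at 2 places, 84 and 15 bases before the start, and 1 GC box. The *Itgav* window also held GAGGAA at 2 places, 218 and 7 bases before the start, and the *Itgb1* window held 1 of each motif. Of all 32851 windows of this length, 23.3% held GAGGAA and 32.7% held GGGCGG, and the leukocyte chain and both mesenchymal chains held the former. The windows differed in base composition, with 49.6% G and C for *Itgam* and 50% for *Itgax*, against 64% to 68.4% for *Itga4*, *Itgav*, *Itga11*, *Itgb1*, and *Itgb5* and a median of 52.4% over all windows.

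The mesenchymal chains made up most of the integrin message on every day, and their order was led by the same 3 genes. *Itgb1* averaged 781 ± 148 FPKM (SD, n = 9) on day 0, 384 ± 20.6 on day 2, and 317 ± 17.2 on day 4. *Itgb5* followed with 80.0 ± 9.11, 54.9 ± 5.70, and 61.1 ± 7.91 FPKM, and *Itgav* with 58.7 ± 3.60, 24.6 ± 1.601, and 21.3 ± 1.29 FPKM. On each day the ranges of *Itgb1*, *Itgb5*, *Itgav*, and the gene below them did not overlap. The other 7 chains were far lower and shared their ranges with a neighbour in the order. The exception was day 2, when the lowest chains *Itgal* and *Itgax* did not overlap. *Itga11* averaged 6.92, 8.14, and 6.60 FPKM on the 3 days and *Itgb3* 5.21, 2.64, and 4.53 FPKM. The most abundant leukocyte chain, *Itgb2*, averaged 4.17, 5.98, and 8.998 FPKM, and moved from place 6 on day 0 to place 4 on day 4. *Itgam* reached 2.23 FPKM on day 4, *Itgal* 0.626 FPKM, and *Itgax* 0.177 FPKM. *Itgax* rested on 2 to 33 fragments per library, and with a mean of 0.109 FPKM it was below the minimum of 0.5 FPKM set for testing, so that 9 of the 10 members were tested. *Itgal*, with a mean of 0.570 FPKM and 11 to 200 fragments, was just above that minimum.

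**Figure D1:**
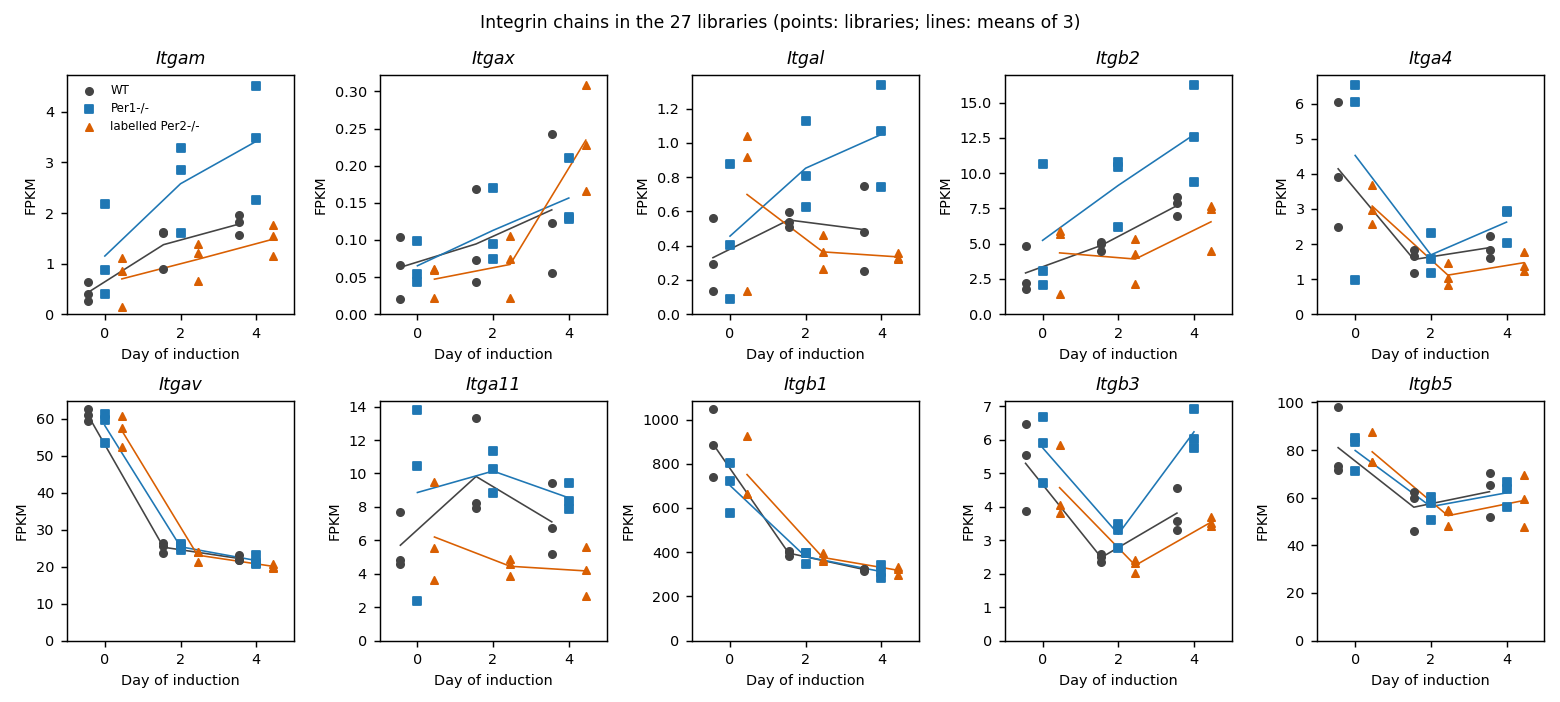
FPKM (y axis, from 0, a scale of its own in each panel) of the 10 integrin chains against the day of induction. Each point is 1 of 27 libraries, set apart sideways by genotype, and lines join the means of 3 replicates. *Itgav* and *Itgb1* of every genotype dropped by day 2 without overlap, while *Itgam* and *Itgb2* were highest in *Per1*-/- libraries on day 4, where they reached 4.52 and 16.3 FPKM.

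To ask how the chains changed during induction, day 2 and day 4 were compared with day 0 over the mean of the 3 genotypes in a single limma fit of log2(FPKM + 0.1) for 14932 genes. Calls required a Benjamini-Hochberg adjusted p no higher than 0.05 together with a change of 0.58 or more in either direction, and all log2 fold changes below are on this scale, with their standard errors. From day 0 to day 2, 4 of the 9 tested members were called lower (*Itgb1*, *Itgav*, *Itgb3*, and *Itga4*) and 1 was called higher (*Itgam*). Of all tested genes, 19.9% were called lower and 22.2% higher in that comparison. From day 0 to day 4, *Itgb1*, *Itgav*, and *Itga4* were called lower, beside 21.2% of all genes, and *Itgam* and *Itgb2* higher, beside 24.4%. From day 2 to day 4, *Itgb3* was the single member called, in the higher direction, beside 6.54% of all genes called higher and 3.43% called lower. In bulk RNA, fewer cells of a type and less RNA per cell cannot be told apart, and this holds for each of these changes. Doxycycline, the change from serum to N3 medium, and time in culture all set the later days apart from day 0. Their parts in the changes against day 0, here and below, cannot be told apart. The changes also depend on the scaling in the deposited values. Rescaling FPKM to a common sum per library shifted the change of the median gene upward by 0.37 on day 2 and 0.29 on day 4 against day 0.

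*Itgb1* ranged from 579 to 1047 FPKM on day 0 with a median of 738, from 346 to 404 with a median of 395 on day 2, and from 285 to 340.2 with a median of 322 on day 4. No library of a later day reached any library of an earlier day. The log2 fold change against day 0 was -1.0045 ± 0.08 on day 2 (adjusted p = 1.55e-10, limma) and -1.28 ± 0.08 on day 4 (adjusted p = 2.71e-12, limma). *Itgav* had the smallest standard error of the 9 tested members. It ranged from 52.3 to 62.7 FPKM on day 0 with a median of 59.7, from 21.3 to 26.5 with a median of 24.5 on day 2, and from 19.5 to 23.3 with a median of 21.0 on day 4. Its 9 libraries of day 0 thus lay far above all 18 later libraries, which overlapped with each other. The log2 fold change was -1.25 ± 0.04 on day 2 (adjusted p = 2.63e-16, limma) and -1.46 ± 0.04 on day 4 (adjusted p = 2.62e-17, limma). Both genes were called lower in each genotype on both days, and neither overlapped with day 0 in any genotype. Under the common sum, where the median gene sits 0.37 higher on day 2, the fall of *Itgb1* in *Per1*-/- libraries on day 2 was -0.48 (adjusted p = 0.00211, limma), short of the minimum fold change.

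*Itgb5*, a β partner of αv, had smaller changes. It ranged from 71.1 to 98.1 FPKM on day 0, from 45.9 to 62.4 on day 2, and from 47.8 to 70.3 on day 4, so that no later library reached the lowest library of day 0. Its log2 fold changes of -0.54 ± 0.09 on day 2 (adjusted p = 7.69e-06, limma) and -0.39 ± 0.09 on day 4 (adjusted p = 0.000305, limma) did not reach the minimum fold change for a call. Within genotypes, the day 2 change of -0.59 ± 0.15 in the libraries labelled *Per2*-/- alone did (adjusted p = 0.00192, limma). It was -0.26 under the common sum (adjusted p = 0.117, limma), and the call was also lost without replicate 2 of day 0 or of day 2. The day 2 changes of WT, at -0.53, and *Per1*-/-, at -0.50, each became a call in at least 1 fit without 1 library. Since *Itgav* fell further than *Itgb5*, the ratio of *Itgb5* to *Itgav* message was 1.14 to 1.604 on day 0, 1.80 to 2.63 on day 2, and 2.24 to 3.33 on day 4, with no overlap between day 0 and the later days.

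*Itgb3*, another β partner of αv, known from platelets and osteoclasts, fell by day 2 and rose again by day 4. Its 9 libraries of day 0 ranged from 3.81 to 6.67 FPKM with a median of 5.55. On day 2 they ranged from 2.03 to 3.47 FPKM with a median of 2.50, below every library of day 0, and on day 4 from 3.30 to 6.92 FPKM with a median of 3.69. The log2 fold change from day 0 to day 2 was -0.94 ± 0.10 (adjusted p = 2.74e-08, limma), and it was called in each genotype. Under the common sum it was -0.57 ± 0.11 (adjusted p = 5.07e-05, limma), just short of the minimum fold change. From day 2 to day 4 *Itgb3* rose by 0.72 ± 0.10 (adjusted p = 2.63e-05, limma), which left day 4 at -0.22 ± 0.10 against day 0 (adjusted p = 0.0521, limma).

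*Itga11* did not move as the other mesenchymal chains did. It ranged from 2.38 to 13.8 FPKM on day 0, from 3.88 to 13.3 on day 2, and from 2.68 to 9.43 on day 4, and the 3 days overlapped widely. Neither change passed the test, with 0.31 ± 0.26 on day 2 (adjusted p = 0.289, limma) and 0.02 ± 0.26 on day 4 (adjusted p = 0.940, limma). Under the common sum the day 2 change was 0.69 ± 0.26 (adjusted p = 0.0207, limma), a call that goes with the upward shift of the median gene. Each of the 4 other mesenchymal chains had its lowest day 0 library above its highest day 2 library. The share of all tested genes with such a separation was not computed.

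*Itga4* fell with the abundant mesenchymal chains, but its replicates spread more. It ranged from 0.980 to 6.55 FPKM on day 0 with a median of 3.69, from 0.844 to 2.32 on day 2 with a median of 1.46, and from 1.24 to 2.93 on day 4 with a median of 1.84. On day 0 *Per1*-/- replicate 1, at 0.980 FPKM, lay far below the other libraries and was the single one inside the range of day 2, and the next lowest, at 2.50 and 2.58 FPKM, still overlapped with day 4. The log2 fold change was -1.24 ± 0.27 on day 2 (adjusted p = 0.000277, limma) and -0.81 ± 0.27 on day 4 (adjusted p = 0.00933, limma). The day 4 call was lost under the common sum, at -0.51 ± 0.26 (adjusted p = 0.0809, limma). In *Per1*-/- cells the day 2 change was -1.03 ± 0.46 (adjusted p = 0.0611, limma) with all replicates, a call with a replicate block (adjusted p = 0.0353, limma), and -1.88 (adjusted p = 3.29e-05, limma) without *Per1*-/- replicate 1 of day 0.

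Of the leukocyte chains, *Itgam* rose on both days and *Itgb2* on day 4, while *Itgal* did not pass the test on either day. *Itgam* ranged from 0.137 to 2.18 FPKM on day 0 with a median of 0.628, from 0.664 to 3.29 on day 2 with a median of 1.61, and from 1.15 to 4.52 on day 4 with a median of 1.82. The ranges of the 3 days overlapped, because day 0 spread 15.9-fold between its lowest and highest library. The log2 fold change against day 0 was 1.21 ± 0.30 on day 2 (adjusted p = 0.00117, limma) and 1.62 ± 0.30 on day 4 (adjusted p = 5.24e-05, limma). *Itgb2* ranged from 1.43 to 10.6 FPKM on day 0 with a median of 3.04, from 2.12 to 10.8 on day 2 with a median of 5.14, and from 4.50 to 16.3 on day 4 with a median of 7.86. It changed by 0.65 ± 0.30 on day 2 (adjusted p = 0.0592, limma), which became a call under the common sum, at 1.02 (adjusted p = 0.00482, limma), and it rose by 1.29 ± 0.30 on day 4 (adjusted p = 0.000644, limma). The highest day 0 library of both genes was *Per1*-/- replicate 3, and without it the day 2 change of *Itgb2* was 0.88 ± 0.27 (adjusted p = 0.00594, limma), a call. *Itgal*, the LFA-1 chain, ranged from 0.0865 to 1.04 FPKM on day 0, from 0.266 to 1.13 on day 2, and from 0.253 to 1.34 on day 4. Its changes of 0.42 ± 0.32 on day 2 (adjusted p = 0.242, limma) and 0.41 ± 0.32 on day 4 (adjusted p = 0.247, limma) did not pass the test, although the day 2 change was 0.72 ± 0.31 (adjusted p = 0.0413, limma) under the common sum. *Itgax* had 2 to 10 fragments per library on day 0, 2 to 19 on day 2, and 6 to 33 on day 4. Without the minimum level, its fitted day 4 change was 0.77 ± 0.18 (adjusted p = 0.00131, limma), the pseudocount being larger than most of its day 0 and day 2 values.

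Within each genotype, where 3 replicates were set against 3, several calls on leukocyte chains were lost when 1 library was left out. Of the 9 tested members, 5 were called in WT cells on day 2, beside 40.5% of all genes, and 4 on day 4, beside 43.8%. In *Per1*-/- cells 4 were called on day 2, beside 39.6%, and 5 on day 4, beside 43.0%. In the libraries labelled *Per2*-/- 5 were called on day 2, beside 35.5%, and 3 on day 4, beside 40.3%. *Itgam* in WT cells held 0.628, 0.260, and 0.397 FPKM in replicates 1 to 3 of day 0 and 1.82, 1.57, and 1.96 FPKM on day 4, a log2 fold change of 1.89 ± 0.52 (adjusted p = 0.00365, limma), which stayed called without any 1 library. It was also called on day 4 in *Per1*-/- cells, at 1.71 ± 0.52 (adjusted p = 0.00745, limma), and in the libraries labelled *Per2*-/-, at 1.27 ± 0.52 (adjusted p = 0.0419, limma). Without replicate 2 of day 0, the lowest library, the last of these was 0.55 (adjusted p = 0.340, limma). That call was also lost without other single libraries and with the compared groups alone (adjusted p = 0.123, limma). Without replicate 1 of day 0 the *Per1*-/- value was 1.19 (adjusted p = 0.0615, limma). *Itgb2* was called on day 4 in WT cells, at 1.49 ± 0.53 (adjusted p = 0.0179, limma), and in *Per1*-/- cells, at 1.59 ± 0.53 (adjusted p = 0.0127, limma). Both calls were lost without 1 of several libraries, with 1.21 (adjusted p = 0.0821, limma) for WT without replicate 2 of day 0 and 1.11 (adjusted p = 0.0881, limma) for *Per1*-/- without replicate 1 of day 0. *Itgal* was called in *Per1*-/- cells on day 4, at 1.31 ± 0.55 (adjusted p = 0.0442, limma), a value that fell to 0.68 (adjusted p = 0.291, limma) without replicate 1 of day 0. The *Itgal* call was also lost without other single libraries, with a pseudocount of 1 (0.52), and with the compared groups alone (adjusted p = 0.117, limma).

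**Figure D2:**
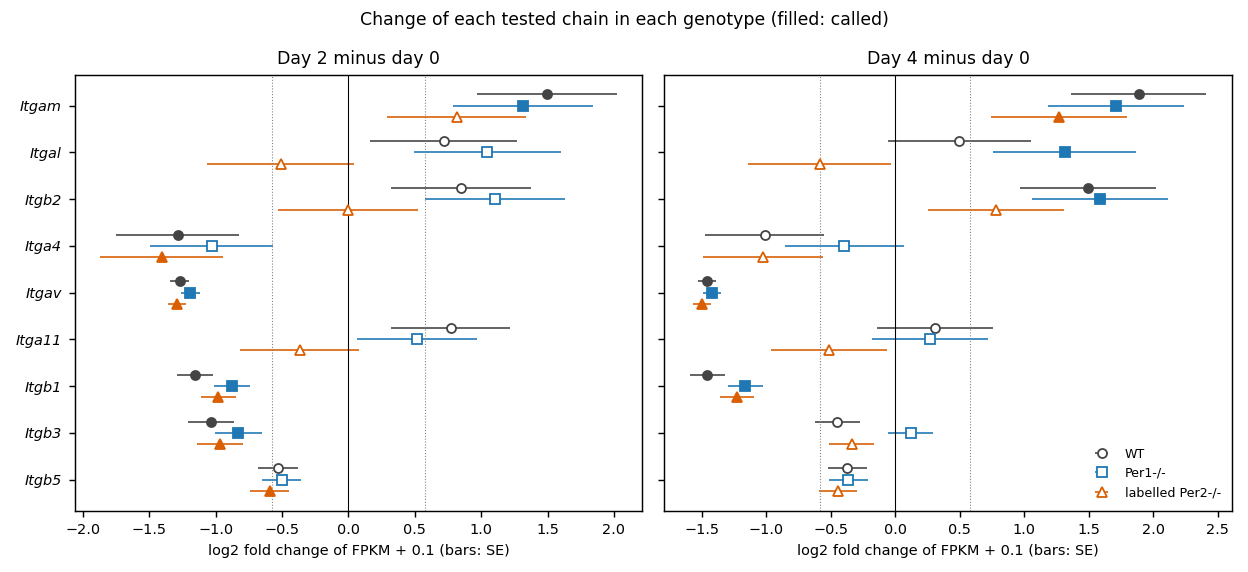
Log2 fold change of FPKM + 0.1 (x axis) of the 9 tested chains on day 2 and on day 4 against day 0, for each genotype, with standard errors. Filled symbols passed both thresholds, and the dotted lines mark 0.58 in either direction. *Itgav* and *Itgb1* lie to the left with filled symbols in every genotype, *Itgam* on day 4 lies to the right with filled symbols, and *Itgb5* lies near the left dotted line, filled at -0.59 on day 2 in the libraries labelled *Per2*-/-.

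The classes were then compared as sums over their chains, of which the shares and ratios within a library, but not the sums themselves, are free of the scaling between libraries. The leukocyte chains summed to 1.72 to 13.8 FPKM on day 0 with a median of 4.36, between 3.12 and 14.9 on day 2 with a median of 7.20, and between 6.20 and 21.6 on day 4 with a median of 10.6. The mesenchymal chains summed to 742 to 1189.5 FPKM on day 0 with a median of 883, between 436 and 500.5 on day 2 with a median of 484, and between 378 and 442 on day 4 with a median of 411. The share of the leukocyte chains in the summed level of the 10 members was 0.207% to 1.40% on day 0, 0.689% to 3.22% on day 2, and 1.52% to 5.37% on day 4. Every library of day 4 thus lay above every library of day 0, by a narrow gap set by *Per1*-/- replicate 3 of day 0 at 1.40% and replicate 2 of day 4 labelled *Per2*-/- at 1.52%. The mean share was 0.578%, 1.72%, and 2.84% on the 3 days. *Itgb1* alone made up 83.5%, 81.0%, and 77.2% of the mesenchymal sum.

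The makeup of the β2 integrins is given as a description, with no test. Of the 3 α chains, *Itgam* made up 56.7% ± 11.4 (SD, n = 9) on day 0, 69.8% ± 8.04 on day 2, and 72.9% ± 5.88 on day 4. The 3 days overlapped, and the lower share on day 0 came from WT libraries, at a mean of 52.5%, and those labelled *Per2*-/-, at 47.6%, whereas *Per1*-/- libraries held 70.0%, 71.7%, and 72.8% on the 3 days. The ratio of *Itgal* to *Itgam* was 0.216 to 1.13 on day 0 and 0.162 to 0.475 on day 4. The summed α chains stayed below their β partner, at 0.308 ± 0.0672, 0.403 ± 0.0431, and 0.334 ± 0.0421 of the *Itgb2* level.

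Macrophage transcripts moved with *Itgam* and *Itgb2*, and less closely with *Itgal* and *Itgax*. The 20 macrophage markers, which do not include any member, summed to 159.5 to 1295 FPKM on day 0, 212 to 1474 on day 2, and 548 to 2497 on day 4. Of the 20, all tested, 11 were called higher on day 2 and 18 on day 4, beside 22.2% and 24.4% of all tested genes. The median log2 fold changes of the markers were 0.78 and 1.92, against medians of -0.0087 and -0.0059 over all tested genes. Among them, *Adgre1* (F4/80) rose by 2.35 ± 0.28, *Csf1r*, the receptor for M-CSF, by 2.19 ± 0.30, and *Ptprc*, the pan-leukocyte CD45, by 2.17 ± 0.24 by day 4 (limma). *Cd14* and *Fcgr3* were not called, at 0.19 and 0.70. None of the 7 T cell, 5 B cell, 7 neutrophil, or 6 mast and NK cell markers averaged 0.5 FPKM. Of the 7 dendritic cell markers, *Zbtb46* alone did, at 0.831 FPKM, and it changed by 0.81 on day 4, a call. Of 4 megakaryocyte markers 2 reached that level, with *Pf4* called higher and *Ppbp* called lower on day 4. Over the 27 libraries the mean log2 level of the macrophage markers had a Pearson's r of 0.964 with *Itgb2*, 0.945 with *Itgam*, and 0.739 with *Itgal*. With *Itgax*, which rested on few fragments, it had an r of 0.542. The libraries share days and genotypes, and with the group means taken out these values were 0.954, 0.939, 0.852, and 0.132 in the same order. For the mesenchymal chains, the r after removal of the group means ranged from -0.211 for *Itgb5* to 0.548 for *Itgb1*, and *Itga4* had 0.431. Single markers moved by different amounts, with log2 fold changes on day 4 from 0.19 for *Cd14* to 3.60 for *Aif1*, and those of *Cd68* (1.40) and *Lyz2* (1.03) stood nearer to the 1.29 of *Itgb2* than those of *Adgre1* and *Ptprc*. The part of macrophage number in the changes of the leukocyte chains was not tested.

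**Figure D3:**
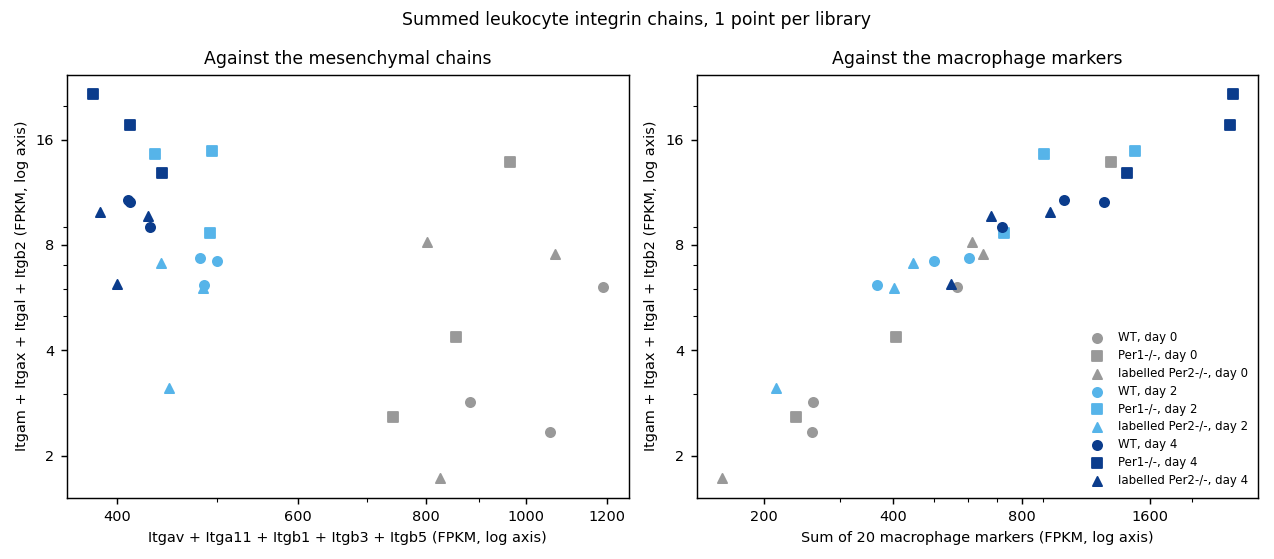
Summed FPKM of the 4 leukocyte chains (y axis, log scale) against the summed FPKM of the 5 mesenchymal chains (left) and of 20 macrophage markers (right, both x axes on a log scale), with 1 point per library, colored by day and shaped by genotype. The day 0 libraries stand to the right at 742 to 1189.5 FPKM of mesenchymal chains, and on the right panel the libraries of all days fall along a single band.

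The remaining integrin chains and the proteins that serve integrins were set beside the members. Of all tested genes, 19.9% were called lower and 22.2% higher on day 2, and 21.2% lower and 24.4% higher on day 4. Of 16 other chains, 11 were tested, and 5 were called lower and 2 higher on day 2. On day 4, *Itga3*, *Itga5*, *Itga6*, and *Itga7* were called lower and *Itga9* and *Itgb8* higher. *Itga5*, which makes the classical fibronectin receptor with β1, went from 177 to 41.7 FPKM on day 4 (log2 fold change -2.08 ± 0.11, adjusted p = 2.68e-13, limma), and the laminin-binding chain *Itga3* from 18.9 to 3.61 FPKM (-2.31 ± 0.11). Both values were larger in size than the -1.28 of *Itgb1*. *Itga9*, a relative of *Itga4*, went from 1.70 to 3.75 FPKM (1.05 ± 0.11), and *Itgb8*, another partner of αv, from 1.03 to 2.05 FPKM (0.97 ± 0.15).

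Of 26 genes of the shared adhesion machinery, 16 were called lower and 0 higher on day 2, and 17 lower and 1 higher on day 4. Their median was -0.87 on day 4 against -0.0059 over all genes. The shares of all tested genes were 19.9% lower and 22.2% higher on day 2, and 21.2% and 24.4% on day 4. The actin crosslinker *Actn1* fell from 288 to 50.2 FPKM (-2.52 ± 0.12), the kindlin *Fermt2* from 79.5 to 26.7 FPKM (-1.56 ± 0.07), vinculin (*Vcl*) from 99.1 to 37.5 FPKM (-1.40 ± 0.07), and talin (*Tln1*) from 129 to 70.9 FPKM (-0.86 ± 0.06). Paxillin (*Pxn*) changed by 0.19 ± 0.06 and was not called, and the tensin *Tns2* rose by 0.59 ± 0.14. Of 17 genes of the leukocyte adhesion machinery, 15 were tested, and 7 were called higher and 2 lower on day 2, and 9 higher and 1 lower on day 4, with a median of 1.72. They included the leukocyte kindlin *Fermt3* (4.04 to 11.9 FPKM, 1.72 ± 0.30), the actin bundler *Lcp1* (6.73 to 20.1 FPKM, 1.76 ± 0.28), and *Was*, an activator of actin branching (1.14 to 4.34 FPKM, 1.91 ± 0.21). The exception, *Apbb1ip*, which recruits talin downstream of Rap1, went from 8.62 to 5.19 FPKM (-0.72 ± 0.12). The markers of macrophages stood as given above in the same libraries, and their part in the change of this machinery was not tested.

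The ligands showed no single direction. Beside the counts that follow, 24.4% of all tested genes were called higher and 21.2% lower on day 4. Of 23 tested matrix ligands out of 24, 8 were called higher and 10 lower on day 4. The RGD ligands thrombospondin (*Thbs1*) and osteopontin (*Spp1*) went from 1726 to 286 FPKM (-2.59 ± 0.11) and from 718 to 137 FPKM (-2.54 ± 0.31), and fibronectin (*Fn1*) from 1033 to 431 FPKM (-1.26 ± 0.09). The collagen *Col3a1* rose from 156 to 1054 FPKM (2.88 ± 0.20), and the laminin chain *Lama4* from 5.96 to 31.9 FPKM (2.51 ± 0.17). Of 8 tested ligands of leukocyte integrins out of 14, 4 were called higher and 3 lower on day 4. *Icam1*, the ligand of LFA-1, rose from 3.03 to 7.04 FPKM (1.19 ± 0.16), and *C3*, whose fragment iC3b is bound by αMβ2, from 0.822 to 4.05 FPKM (2.03 ± 0.43). The junctional ligand *F11r* fell from 11.9 to 1.82 FPKM (-2.62 ± 0.17), and *Vcam1*, the ligand of α4, from 21.6 to 13.5 FPKM (-0.63 ± 0.13). Of 12 fibroblast markers, 7 were called higher and 3 lower on day 4. The summed level of these markers was 2507 to 2825 FPKM on day 0, 1413 to 2008 on day 2, without overlap, and 1887 to 2646 on day 4. Their part in the changes of *Itgb1* and *Itgav* was not tested.

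**Figure D4:**
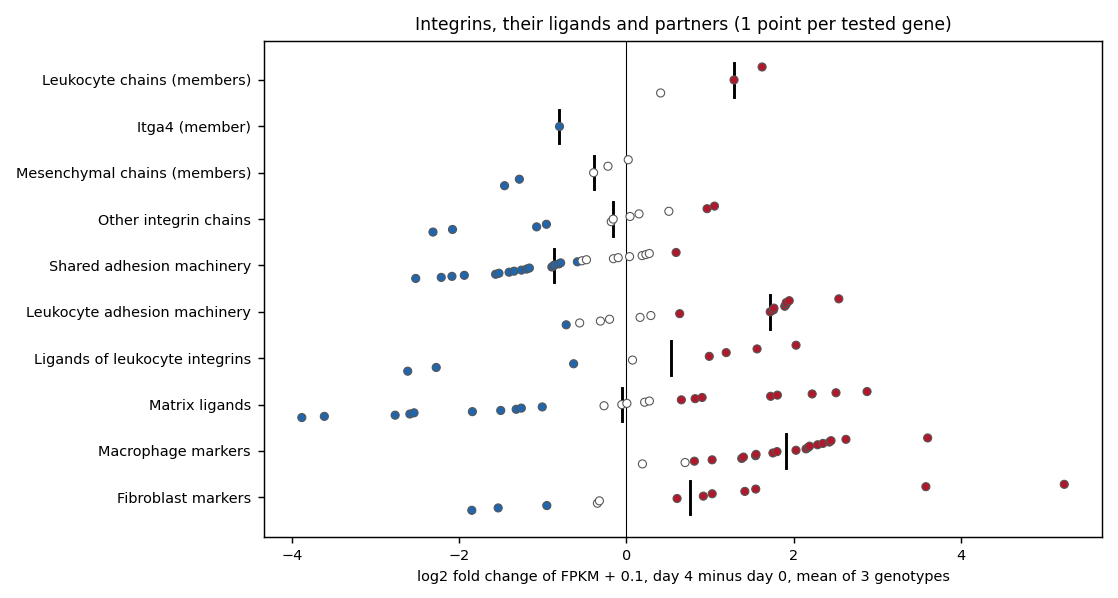
Log2 fold change of FPKM + 0.1 from day 0 to day 4, mean of 3 genotypes (x axis), with 1 point per tested gene of each list. Red points were called higher, blue points lower, open points were not called, and the vertical bars are medians. The shared adhesion machinery lies mostly left of 0 with a median of -0.87, and the leukocyte adhesion machinery mostly right of 0 with a median of 1.72.

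Genotypes were compared within each day to ask whether the chains depended on *Per1* or on the label *Per2*-/-. Of the 9 comparisons, 1 called a member. On day 0 no member was called, beside 0.0134% of all genes for *Per1*-/- against WT, 0.0201% for *Per1*-/- against the libraries labelled *Per2*-/-, and 0.00670% for the latter against WT. On day 2 no member was called, beside 0.00670%, 0.0737%, and 0.0268% in the same order. On day 4 no member was called between *Per1*-/- and WT, beside 0.0268%, or between the libraries labelled *Per2*-/- and WT, beside 0.00670%. Between *Per1*-/- and the libraries labelled *Per2*-/- on day 4, *Itgb3* was called, beside 0.556% of all genes. The comparisons of a day share libraries and are not independent of each other.

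*Itgb3* held 6.92, 6.03, and 5.76 FPKM in *Per1*-/- replicates 1 to 3 on day 4, against 3.41, 3.69, and 3.504 FPKM in the libraries labelled *Per2*-/- and 3.56, 3.30, and 4.56 FPKM in WT libraries. All *Per1*-/- libraries thus lay above all others of the day, and the share of all tested genes with such a separation between genotypes was not computed. The log2 fold change was 0.80 ± 0.17 against the libraries labelled *Per2*-/- (adjusted p = 0.0342, limma) and 0.71 ± 0.17 against WT (adjusted p = 0.373, limma). The call was lost in each of the 6 fits that left out 1 of the libraries compared, with log2 fold changes of 0.72 to 0.85 and adjusted p of 0.0528 to 0.189, and under the common sum, at 0.71 ± 0.18 (adjusted p = 0.127). On day 2 *Itgb3* held 3.29, 2.78, and 3.47 FPKM in *Per1*-/- libraries, again above the 2.35, 2.59, and 2.50 FPKM of WT and the 2.03, 2.31, and 2.40 FPKM of the libraries labelled *Per2*-/-. These differences of 0.34 ± 0.17 (adjusted p = 0.999, limma) and 0.48 ± 0.17 (adjusted p = 0.399, limma) did not pass the test. On day 0 the 3 genotypes overlapped. *Itgb3* lies 35.5 Mb from *Per1* on chromosome 11.

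*Itgam*, *Itgb2*, and *Itgal* had their highest means in *Per1*-/- libraries on days 2 and 4, but no difference was called, and the untested *Itgax* had its highest day 4 mean, 0.234 FPKM, in the libraries labelled *Per2*-/-. On day 4 *Itgam* held 4.52, 2.26, and 3.48 FPKM in *Per1*-/- libraries, 1.82, 1.57, and 1.96 FPKM in WT, and 1.54, 1.15, and 1.76 FPKM in the libraries labelled *Per2*-/-. *Itgb2* held 16.3, 9.39, and 12.6 FPKM in *Per1*-/- libraries, 8.31, 6.93, and 7.86 FPKM in WT, and 7.50, 4.50, and 7.67 FPKM in the libraries labelled *Per2*-/-. For both genes every *Per1*-/- library lay above every other library of the day. How many of all tested genes separate the genotypes in this way was not computed. The log2 fold changes against WT were 0.85 ± 0.52 for *Itgam* (adjusted p = 0.917, limma) and 0.69 ± 0.53 for *Itgb2* (adjusted p = 0.964, limma). Against the libraries labelled *Per2*-/- they were 1.12 ± 0.52 (adjusted p = 0.362, limma) and 0.95 ± 0.53 (adjusted p = 0.469, limma). *Itgal* held 0.740, 1.07, and 1.34 FPKM in *Per1*-/- libraries on day 4, above the 0.355, 0.327, and 0.322 FPKM of the libraries labelled *Per2*-/- but overlapping with the 0.481, 0.253, and 0.746 FPKM of WT. The day 0 values of *Per1*-/- cells already spanned 0.401 to 2.18 FPKM for *Itgam* and 2.05 to 10.6 FPKM for *Itgb2*. The 20 macrophage markers had median log2 differences of 1.00 between *Per1*-/- and WT and 1.49 between *Per1*-/- and the libraries labelled *Per2*-/- on day 4, with 0 called in both, and summed to 1413 to 2497 FPKM in *Per1*-/- libraries, 721 to 1248 in WT, and 548 to 931 in the libraries labelled *Per2*-/-. Their part in the differences of the leukocyte chains was not tested.

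No difference between genotypes was called for the abundant mesenchymal chains. On day 0 *Itgb1* differed by -0.34 ± 0.13 between *Per1*-/- and WT and by -0.25 ± 0.13 between the libraries labelled *Per2*-/- and WT. Between *Per1*-/- and either other group on days 2 and 4, the log2 difference farthest from 0 was -0.06 ± 0.13 for *Itgb1*, 0.10 ± 0.15 for *Itgb5*, and 0.14 ± 0.07 for *Itgav*. *Itga11* was lower in the libraries labelled *Per2*-/- by level. On day 2 it held 4.90, 3.88, and 4.56 FPKM there, against 8.25, 13.3, and 7.90 FPKM in WT and 11.4, 8.80, and 10.3 FPKM in *Per1*-/- libraries, without overlap. Again, the share of all tested genes with such a separation was not computed. The difference between *Per1*-/- and the libraries labelled *Per2*-/- was 1.17 ± 0.45 on day 2 (adjusted p = 0.432, limma) and 1.07 ± 0.45 on day 4 (adjusted p = 0.291, limma), and that between the libraries labelled *Per2*-/- and WT was -1.09 ± 0.45 on day 2 and -0.77 ± 0.45 on day 4 (adjusted p = 1.00 for both, limma). None passed the test. On day 0 the libraries labelled *Per2*-/- held 3.62, 9.46, and 5.51 FPKM and overlapped with both other genotypes. Of the other integrin genes and partners, *Itga9* (5.17 against 2.69 FPKM, 0.94 ± 0.19, adjusted p = 0.0214, limma), the kinase *Syk* (5.92 against 2.32 FPKM, 1.32 ± 0.30, adjusted p = 0.0435, limma), and *Tgfb1*, whose latent form is bound by αv integrins (16.1 against 9.50 FPKM, 0.74 ± 0.14, adjusted p = 0.0191, limma), were called higher in *Per1*-/- libraries than in those labelled *Per2*-/- on day 4. Of all tested genes, 0.442% were called higher in that comparison. These calls were not checked under other settings or without single libraries.

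The changes from day 0 were also compared between genotypes by interaction contrasts, for *Per1*-/- against WT and against the libraries labelled *Per2*-/-. No member was called, beside 0% of all genes in each of the 4 contrasts, where 306 to 895 genes had an unadjusted p under 0.05 (limma). The largest interaction of a tested member was that of *Itgal* on day 4, at 1.90 ± 0.78 for *Per1*-/- against the libraries labelled *Per2*-/- (adjusted p = 0.753, limma).

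**Figure D5:**
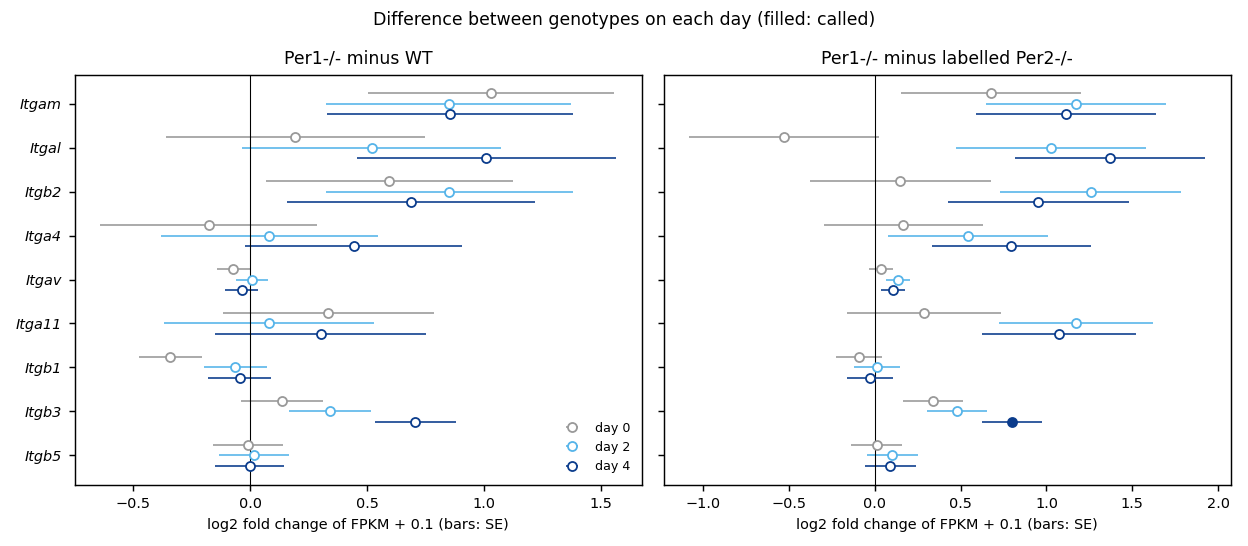
Log2 difference of FPKM + 0.1 (x axis) between *Per1*-/- and WT (left) and between *Per1*-/- and the libraries labelled *Per2*-/- (right) for 9 tested chains on each day, with standard errors. The single filled symbol, which passed both thresholds, is *Itgb3* on day 4 on the right at 0.80, and *Itgav*, *Itgb1*, and *Itgb5* on days 2 and 4 lie close to 0.

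The genes whose pattern was most like each member were found by Pearson's r of log2(FPKM + 0.1) over the 27 libraries, among genes of at least 0.5 FPKM. This r follows the difference between days as well as that between replicates, and is given as a description. *Itgb2* was most like *Lair1* (0.970) and *Tlr13* (0.969), and *Itgam* most like *Laptm5* (0.969), *Rac2* (0.964), and *Ikzf1* (0.964), all known from leukocytes. *Itgal* was most like *Stab1* (0.867), *Fcgr3* (0.828), and *Apoe* (0.821). *Itgav* was most like *Kctd10* (0.990), its own ligand gene *Thbs1* (0.990), and *Pvr* (0.986). *Itgb1* was most like *Mprip* (0.981), the actin severing gene *Dstn* (0.980), and *Cdk17* (0.979), and *Itgb5* most like the membrane protease *Mmp14* (0.940), *Pdxdc1* (0.922), and *Calu* (0.916). *Itgb3* was most like *Ppp2r5a* (0.906), *Cndp2* (0.9002), and *Slc15a4* (0.899), and *Itga4* most like *Plekho1* (0.888), *Jade2* (0.875), and *Tpd52* (0.872). The values for *Itga11*, led by *Selenom* (0.763), and for *Itgax*, led by *Gm47071* (0.783), were lower. Between members, *Itgam* and *Itgb2* had an r of 0.95 both over the libraries and with group means taken out, whereas *Itgav* and *Itgb1* had 0.96 over the libraries and 0.27 with group means taken out.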

How the data were processed

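RNA of 27 cultures was sequenced as nondirectional poly-A libraries. The authors aligned reads to GRCm38 (mm10) with HISAT2 2.0.5, counted fragments per gene with featureCounts 1.5.0-p3, and deposited FPKM. All deposited FPKM values gave back whole fragments (tolerance 0.01) and were scaled by size factors between libraries, so they depend on that scaling. Groups follow the labels. From these values, log2(FPKM + 0.1) of 14932 genes (mean level 0.5 FPKM or higher) was fitted with limma 3.58.1 (trend, R 4.3.3) over 9 groups, with 22 contrasts, Benjamini-Hochberg adjustment, and scripts tested on simulated data. With 3 against 3, an exact permutation test cannot go below 0.1. Strand was not used, so antisense reads cannot be told apart. Genes named are the members, *Per1*, *Per2*, genes of fixed lists, and the 3 genes most like each member. Some items are not reported here. The members and lists were chosen with earlier results of these data known. Alternatives changed the pseudocount, filter, scaling, weights, samples fitted, and replicate block.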

Additional observations from a re-analysis of the deposited data

Results flagged for a closer look

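In 8 cases every library of one genotype lay above the day 0 mean of log2(FPKM + 0.1) of its genotype and every library of another lay below its own. The search covered every member, both later days, and every pair of genotypes. The share of all genes that meet this rule was not computed. For *Itgal*, the log2 changes to day 2 were 0.72 in WT, 1.04 in *Per1*-/-, and -0.51 in the libraries labelled *Per2*-/-. The difference of 1.23 between WT and the libraries labelled *Per2*-/- was not tested, and that of 1.55 ± 0.78 between *Per1*-/- and the libraries labelled *Per2*-/- had an adjusted p of 0.987 (limma interaction contrast). By day 4 the latter was 1.90 ± 0.78 (adjusted p = 0.753, limma), from 1.31 and -0.58. For *Itga11*, the changes to day 2 were 0.77 in WT, 0.52 in *Per1*-/-, and -0.37 in the libraries labelled *Per2*-/-. The difference of 1.14 between the first and the last was not tested, and that of 0.88 ± 0.64 between the second and the last had an adjusted p of 0.987 (limma), with 0.79 ± 0.64 (adjusted p = 0.927, limma) by day 4. For *Itgb3*, the changes to day 4 were 0.12 in *Per1*-/-, -0.45 in WT, and -0.34 in the libraries labelled *Per2*-/-, and the differences of 0.57 ± 0.25 (adjusted p = 1.00, limma) and 0.46 ± 0.25 (adjusted p = 0.862, limma) did not pass the test.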

How the results depend on the processing

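For 198 results on members, 3488 values were computed under other settings, of which 3391 left the call and direction as they were, 52 lost a call, 45 gained one, and 0 reversed. Of the changes, 51 came from leaving out 1 library. From day 2 to day 4 the count of members called, 1, became 0 with a pseudocount of 1, 2 with the replicate block or with the compared groups alone, and 3 with no minimum fold change, with 1 in every fit without 1 library. In *Per1*-/- cells on day 4 against day 0 the count of 5 became 3 with the compared groups alone and 3 to 5 without 1 library. In the libraries labelled *Per2*-/- on day 2 against day 0 it was 3 to 5 without 1 library. Between *Per1*-/- and the libraries labelled *Per2*-/- on day 4 the 1 call became 0 under the common sum and 0 in every fit without 1 library. The cause was not tested. Over all genes that comparison called 83 genes, 144 with the replicate block and 266 with voom weights. Replicate numbers were shared between groups without a label for a common source. Same-numbered libraries of a genotype had correlations of deviations from -0.017 to 0.294 between days, over 0.1 in 14 of 27 pairs against 0 of 54 pairs with other numbers. The best match was the own number in 48 of 54 comparisons, so same-numbered libraries of a genotype resembled each other more than other libraries did. What they share is not labelled, and the main fit, which has no block, does not take this likeness into account. With the block, *Itgb2* gained calls on day 2 against day 0 (adjusted p = 0.0145) and day 4 against day 2 (adjusted p = 0.0360, limma), and in *Per1*-/- cells on day 2 (adjusted p = 0.0202, limma). *Itga4* gained calls with the block in *Per1*-/- cells on day 2 (adjusted p = 0.0353), and on day 4 in WT cells and the libraries labelled *Per2*-/- (adjusted p = 0.0365 for both, limma). From day 0 to day 2 *Itgb2* also gained a call with library totals, at 0.92 (adjusted p = 0.00907), and voom weights, at 0.72 (adjusted p = 0.0386, limma). *Itgax*, at 2 to 33 fragments, and *Itgal* limit what can be seen of the leukocyte α chains. Of the 30 genes listed as most like a member, 12 were shared with a Spearman list and 2 with a list from deviations from group means, the latter chosen after seeing the data.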
